A study of Mus musculus with 2 samples.

Results

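The genes described here carry the interferon response and the processing of antigen for MHC class I, and they were measured in dorsal skin of mice. They are 43 genes named by symbol, in groups of IRF and STAT factors (8), nucleic acid sensors (5), targets of type I interferon (20), guanylate-binding proteins (2) and MHC class I processing (8). Of these, 39 were measured by a transcript cluster that names the gene alone, among 22180 genes measured in that way. The other 4 were Irf5, Oas1a, Ifi44 and Gbp2. Irf5, Oas1a and Gbp2 had only clusters that name a second gene as well, and Ifi44 was not analysed here.

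Total RNA came from skin of male BALB/cAJcl mice aged 7 weeks, with 1 array for FGF18 and 1 for the saline control. Fibroblast growth factor 18 is a secreted protein that the series title ties to rest in the hair cycle. For the FGF18 sample, depilation of the back set off hair growth, and 6 days on the mice were injected intraperitoneally with 100 µg of the protein, dissolved in saline that held 5 µg/µl of heparin. They received 6 Gy of γ-rays over the whole body 24 h later, and the skin was collected after another 4 h. The control is labelled saline, and its entries are blank for depilation, day of injection, heparin, radiation and time of collection. Whether it shared any of these steps with the FGF18 sample is therefore unknown. Mouse numbers are given for neither sample. FGF18 thus cannot be told apart from any difference in those steps. No replicates, no p-values and no spread between animals exist for this comparison, and each difference sets 1 array against another. Skin is a mixture, and fewer cells of a type and less RNA per cell cannot be told apart.

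Interferons are secreted proteins that cells release when sensors find foreign or misplaced nucleic acid. They bind surface receptors, whose kinases activate STAT factors. STAT2 joins IRF9 in a complex that binds a DNA element named the interferon-stimulated response element (ISRE) and switches on antiviral genes, while interferon gamma acts mainly through gamma-activated sites (GAS). Both routes raise the proteins that cut, carry and load peptides onto MHC class I. In skin, keratinocytes, fibroblasts and resident immune cells can all respond.

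The intensities are linear, as deposited. A difference is the FGF18 value less the saline value after log2(intensity + 1), which understates the change of dim genes, and a fold is 2 raised to that difference. The median gene read 16.7 on the FGF18 array and 16.8 on the saline array. No detection call was used here, so a member below its array's median on either array is given by its intensities without a fold.

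The interferon and antigen processing genes differed little between the arrays. Of the 39 measured members 22 were higher on the FGF18 array, 16 were lower and 1 was equal, with a median difference of 0.07, against a median of 0.00 over all genes. Over the 19 members at or above both array medians the median difference was 0.00, against 0.07 over all genes at that level. A difference of 1.5-fold or more was reached by 1 member on the higher side, Isg15, and by 1 on the lower side, Stat2. Over all genes 2.61% passed 1.5-fold on the higher side and 4.15% on the lower side, so neither count stands out. With a pseudocount of 16 in place of 1, 0 members passed 1.5-fold on either side, against 0.546% of all genes higher and 1.39% lower. No member reached 2-fold, against 0.257% of all genes higher and 1.06% lower by that much. The central 95% of differences over all genes ran from -0.72 to 0.59, and 1 member, Isg15, lay outside it. On both arrays 15 members lay below the array median, 19 lay at or above it, and 5 crossed it.

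**Figure D1:**
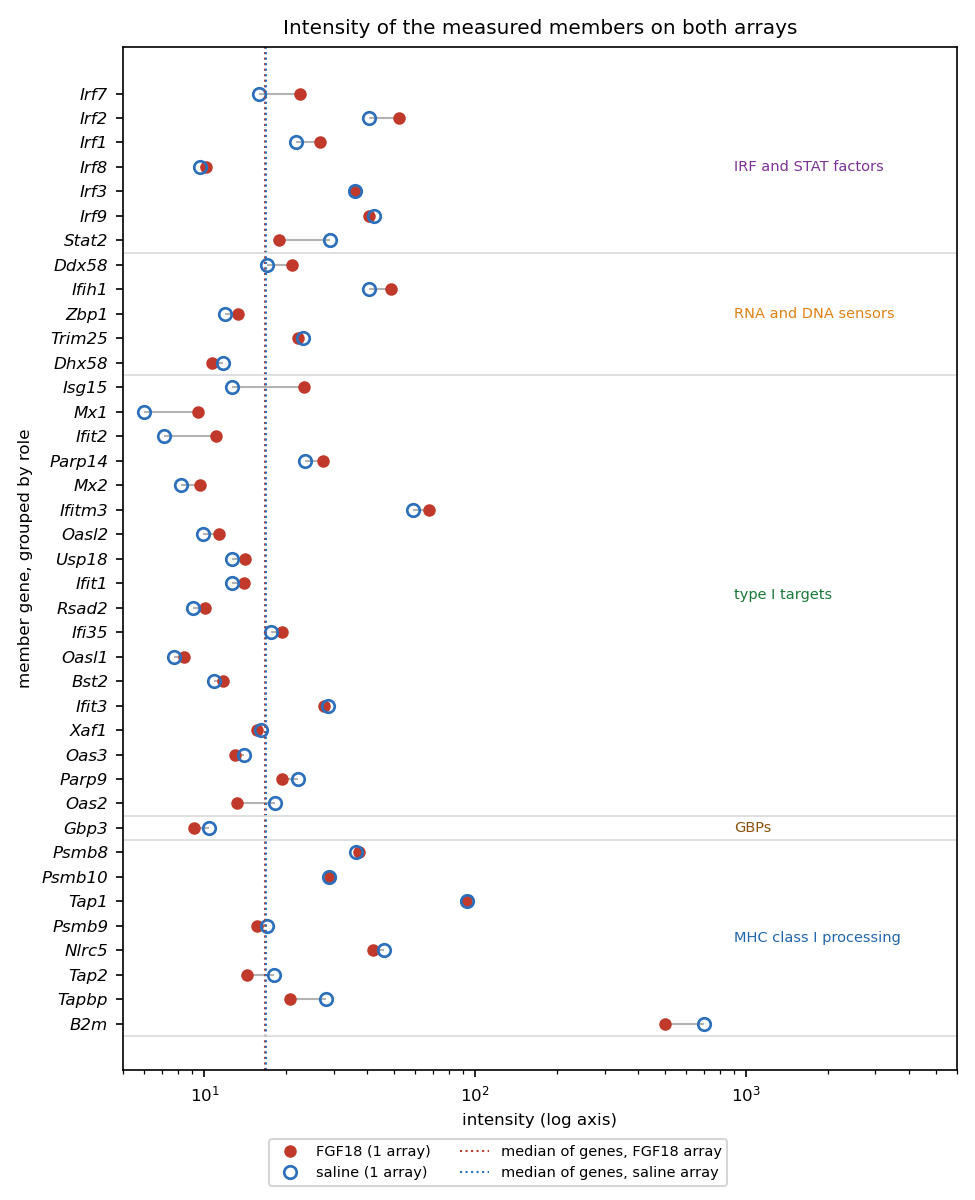
Intensity (log axis) of the 39 measured members on the FGF18 array (filled points) and the saline array (open points), 1 array each, grouped by role, with dotted lines at the median gene of each array (16.7 for FGF18 and 16.8 for saline). Most type I targets sit left of the medians, while B2m stands at 500 on the FGF18 array and 701 on the saline array.

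Among the transcription factors, Stat2 was lower and most measured IRF genes were near equal or higher. Stat2, the DNA-bound partner of IRF9 in type I signalling, read 18.9 on the FGF18 array and 29.0 on the saline array, a difference of -0.59 that makes it 1.51-fold lower. Of all genes, 4.04% had a lower difference than Stat2. Its partner Irf9 read 40.5 on the FGF18 array and 42.3 on the saline array, a difference of -0.06. These partners of 1 complex were therefore not lower to the same extent.

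Irf7, which amplifies type I interferon production once induced, read 22.6 on the FGF18 array and 15.9 on the saline array. The saline value lies just under the array median. Irf2, which competes with IRF1 for its sites, read 52.4 on the FGF18 array and 40.6 on the saline array, 1.28-fold higher. Irf1, an activator of MHC class I and immunoproteasome genes, read 26.7 on the FGF18 array and 21.8 on the saline array, 1.21-fold higher. The activator and its competitor thus stood on the same side.

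Irf3, a factor made without induction and activated by phosphorylation, had the same value of 35.8 on both arrays. Irf8, a factor of dendritic cells and macrophages, averaged 10.1 on the FGF18 array and 9.60 on the saline array over its 2 clusters, both below the median on each array. The cluster of Irf5 that also names Tnpo3 read 16.5 on the FGF18 array and 15.7 on the saline array, and the signal cannot be assigned to either gene. The 7 measured factors had a median difference of 0.07, with 4 higher, 2 lower and 1 equal, where 49.5% of all genes were higher.

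The sequences upstream of Stat2 and Irf2 are shown because these factors lie at the lower and the higher side of the group and both windows hold a match to the ISRE core, which was searched as GAAA, any 2 bases and GAAA again. They are the 250 bases before each annotated start in RefSeq (GRCm38.p6), 5′ to 3′ on the gene's strand, with the match in capitals. In Stat2 (chr10:128270248-128270497, plus strand) the match is on the opposite strand and ends 213 bases before the start. In Irf2 (chr8:46739495-46739744, plus strand) it ends 232 bases before the start.
Stat2: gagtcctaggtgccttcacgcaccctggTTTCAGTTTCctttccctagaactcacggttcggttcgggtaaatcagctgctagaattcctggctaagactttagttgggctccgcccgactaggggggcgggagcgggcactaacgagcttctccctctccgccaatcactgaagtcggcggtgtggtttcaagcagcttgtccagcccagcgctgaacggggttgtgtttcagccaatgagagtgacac
Irf2: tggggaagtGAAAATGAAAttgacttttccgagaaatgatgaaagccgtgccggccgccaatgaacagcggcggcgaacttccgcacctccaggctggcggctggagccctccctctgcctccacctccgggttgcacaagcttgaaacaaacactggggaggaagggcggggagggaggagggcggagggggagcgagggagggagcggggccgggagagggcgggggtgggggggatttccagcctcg

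Of the RNA sensors related to RIG-I, Ifih1 and Ddx58 were slightly higher on the FGF18 array and Dhx58 was slightly lower. Ifih1, which encodes the long double-stranded RNA sensor MDA5, read 48.9 on the FGF18 array and 40.4 on the saline array, 1.20-fold higher. Ddx58, the gene of the RNA sensor RIG-I, read 21.1 on the FGF18 array and 17.0 on the saline array, 1.22-fold higher. Dhx58, a relative of both that lacks their signalling domain, read 10.7 on the FGF18 array and 11.7 on the saline array.

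Zbp1, a sensor of Z-form nucleic acid that can start necroptosis, read 13.4 on the FGF18 array and 11.96 on the saline array. Dhx58 and Zbp1 lay below the median on both arrays. Trim25, a ubiquitin ligase reported to activate RIG-I, read 22.1 on the FGF18 array and 23.1 on the saline array, a difference of -0.06. In this group 3 of 5 were higher and none reached 1.5-fold, with a median difference of 0.15, where 49.5% of all genes were higher.

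In Ifih1 and Ddx58 the ISRE core lies just after the annotated start, so only short stretches around it are shown, from RefSeq GRCm38.p6, with the match in capitals. The match in Ddx58 (chr4:40239804-40239833, minus strand) begins at base 3 of the transcript, on the strand opposite to the gene. The match in Ifih1 (chr2:62646206-62646233, minus strand) begins at base 33.
Ddx58: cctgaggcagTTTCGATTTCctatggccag
Ifih1: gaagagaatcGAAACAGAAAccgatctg

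Targets of type I interferon were mostly dim, and most read slightly more after FGF18. With 13 higher and 5 lower, 72.2% of the 18 measured genes were higher and the median difference was 0.14, against 49.5% of all genes higher. Dim and bright genes differ in this respect on these arrays: 39.0% of genes below both array medians were higher, and 59.8% of genes at or above both. Of the 11 targets below both medians 9 were higher, and of the 5 at or above both medians 3 were. Among all 18 targets, 1 reached 1.5-fold on the higher side and 0 on the lower, against 2.61% and 4.15% of all genes.

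Isg15, a ubiquitin-like protein that is attached to other proteins during the response, read 23.2 on the FGF18 array and 12.6 on the saline array. The saline value lies below the median of its array. Of all genes, 99.4% had a lower difference than Isg15. Usp18, the protease that removes ISG15 and also dampens the interferon receptor, read 14.2 on the FGF18 array and 12.7 on the saline array, below both medians.

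The promoter of Isg15 is shown as the member with the largest difference, chosen after its value was seen. The 250 bases before its start (RefSeq GRCm38.p6, chr4:156200819-156201068, minus strand) hold 3 overlapping matches to the ISRE core on the gene's strand, in capitals as 1 run that ends 57 bases before the start.
Isg15: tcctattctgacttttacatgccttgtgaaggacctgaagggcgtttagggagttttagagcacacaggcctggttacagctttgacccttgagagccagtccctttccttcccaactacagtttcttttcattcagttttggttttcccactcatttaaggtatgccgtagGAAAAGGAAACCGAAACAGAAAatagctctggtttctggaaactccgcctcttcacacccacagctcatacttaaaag

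The IFIT family, whose proteins bind viral RNA, did not differ as 1 block. Ifit2 read 11.0 on the FGF18 array and 7.10 on the saline array. Ifit1 read 14.1 on the FGF18 array and 12.6 on the saline array. These Ifit2 and Ifit1 values all lie below the medians. Ifit3 read 27.7 on the FGF18 array and 28.5 on the saline array, a difference of -0.04. Ifit2 and Ifit3 are neighbours in the RefSeq gene table, and the near-identical copy Ifit3b read 6.08 on the FGF18 array and 6.75 on the saline array. Probes may not separate such copies.

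The Mx genes encode antiviral GTPases, and Mx1 is defective in most inbred strains, BALB/c included. Mx1 read 9.46 on the FGF18 array and 5.98 on the saline array. Mx2 read 9.63 on the FGF18 array and 8.20 on the saline array. All 4 values lie below the medians.

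The OAS enzymes make oligoadenylates that activate an RNase, and their genes leaned both ways. Oas2 read 13.2 on the FGF18 array and 18.2 on the saline array. Its neighbour Oas3 read 13.0 on the FGF18 array and 14.1 on the saline array. The relatives Oasl1 and Oasl2 stood on the other side, at 8.44 and 11.3 on the FGF18 array, against 7.75 and 9.85 on the saline array. The cluster that names Oas1a together with Oas1g read 3.56 on the FGF18 array and 5.33 on the saline array. Apart from Oas2 on the saline array, every one of these values lies below its array's median.

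The antiviral membrane and effector genes showed small differences. Ifitm3, whose protein blocks virus entry at endosomes, read 67.3 on the FGF18 array and 59.1 on the saline array, 1.14-fold higher. Rsad2, the gene of the antiviral enzyme viperin, read 10.03 on the FGF18 array and 9.05 on the saline array. Bst2, which tethers budding virus to the cell, read 11.7 on the FGF18 array and 10.8 on the saline array. Xaf1, a promoter of apoptosis, read 15.6 on the FGF18 array and 16.2 on the saline array. Of these 4 genes only Ifitm3 lay above the medians.

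Parp14, an ADP-ribosyltransferase, read 27.5 on the FGF18 array and 23.5 on the saline array, 1.16-fold higher. Parp9, which works with the ubiquitin ligase DTX3L, read 19.3 on the FGF18 array and 22.2 on the saline array, 1.14-fold lower. A second cluster, which names Dtx3l together with Parp9, read 19.8 on the FGF18 array and 16.04 on the saline array and so leaned the other way. Ifi35, an interferon-induced leucine zipper protein gene, averaged 19.4 on the FGF18 array and 17.6 on the saline array, but its 2 clusters disagreed. They read 37.3 and 9.84 on the FGF18 array, against 39.8 and 7.46 on the saline array. The direction of Parp9 and of Ifi35 is therefore not settled by these arrays.

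The guanylate-binding proteins are GTPases induced mainly by interferon gamma that attack vacuoles of intracellular microbes. Gbp3 read 9.17 on the FGF18 array and 10.4 on the saline array, below both medians. The cluster shared by Gbp2 and its close copy Gbp2b had the same value of 17.4 on both arrays. The cluster of Gbp2b alone read 18.2 on the FGF18 array and 12.5 on the saline array.

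**Figure D2:**
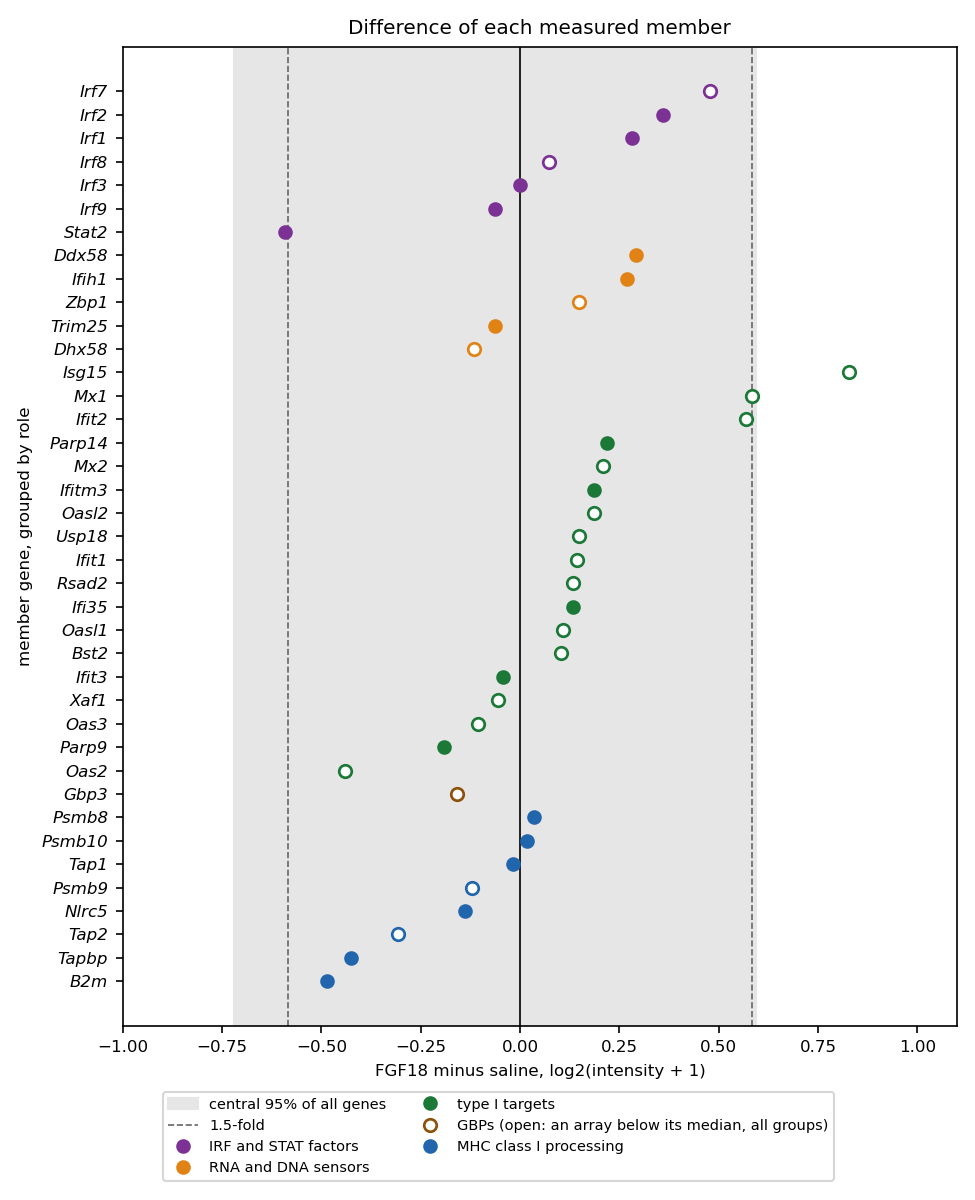
Difference (FGF18 minus saline, log2(intensity + 1)) of each of the 39 measured members, 1 array per group, coloured by role. Open points have at least 1 array below its median, dashed lines mark 1.5-fold and the grey band is the central 95% of all genes (-0.72 to 0.59). Isg15 lies outside the band, and B2m, Tapbp and Tap2 lie lowest among the class I genes.

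MHC class I processing leaned to the lower side, with its light chain gene B2m lowest and its immunoproteasome genes almost equal. Of 8 members 6 were lower and 2 higher, with a median difference of -0.13, and none reached 1.5-fold. Over all genes 45.5% were lower. Among the 6 members at or above both array medians 4 were lower, with a median of -0.08. At that level 3895 of all 10433 genes were lower, with a median of 0.07. B2m, the light chain of every class I molecule, read 500 on the FGF18 array and 701 on the saline array, a difference of -0.49 that makes it 1.40-fold lower. Of all genes, 6.38% had a lower difference than B2m.

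Tapbp, the gene of tapasin, which holds empty class I molecules at the peptide transporter, averaged 20.7 on the FGF18 array and 28.2 on the saline array, 1.34-fold lower. Its 2 own clusters read 30.8 and 13.8 on the FGF18 array, against 47.1 and 16.7 on the saline array. A further cluster that names Tapbp together with Zbtb22 ran the other way, at 22.2 on the FGF18 array and 15.9 on the saline array. Both of its own clusters were thus lower, and the shared one was not. With the shared cluster counted, the difference of Tapbp was -0.13, against -0.43 without it, so its size is not settled by these arrays.

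Tap1 and Tap2 together encode the peptide transporter. Tap1 read 92.4 on the FGF18 array and 93.5 on the saline array, a difference of -0.02. Tap2 read 14.4 on the FGF18 array and 18.0 on the saline array, with the FGF18 value below its median. Nlrc5, the transactivator of class I genes, read 41.8 on the FGF18 array and 46.1 on the saline array, a difference of -0.14.

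The immunoproteasome subunits replace their constitutive counterparts in the proteasome core under interferon. Psmb8 read 37.3 on the FGF18 array and 36.4 on the saline array. Psmb10 read 29.1 on the FGF18 array and 28.8 on the saline array. Psmb9 read 15.6 on the FGF18 array and 17.1 on the saline array. Differences of the first 2 were 0.04 and 0.02, and the FGF18 value of Psmb9 lies below its median. The constitutive counterparts were as close. Psmb5, replaced by Psmb8, read 73.4 on the FGF18 array and 72.4 on the saline array. Psmb6, replaced by Psmb9, read 36.4 on the FGF18 array and 34.0 on the saline array. Psmb7, replaced by Psmb10, read 118 on the FGF18 array and 111 on the saline array.

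Psmb9, Tap1, Psmb8 and Tap2 lie next to each other on chromosome 17 in the RefSeq gene table, and Psmb9 and Tap1 are read away from each other from starts 226 bases apart. The stretch between those starts is shown because 1 sequence serves both genes, whose differences were -0.12 for Psmb9 and -0.02 for Tap1. It runs along the strand of Tap1 (RefSeq GRCm38.p6, chr17:34187330-34187556, plus strand), and the capitals at its ends mark the annotated first bases of Psmb9 (left, read on the opposite strand) and Tap1 (right). It holds no match to the ISRE core. The 250 bases before the start of B2m (chr2:122147437-122147686, plus strand) hold 1 match, in capitals, that ends 130 bases before the start.
Tap1 and Psmb9: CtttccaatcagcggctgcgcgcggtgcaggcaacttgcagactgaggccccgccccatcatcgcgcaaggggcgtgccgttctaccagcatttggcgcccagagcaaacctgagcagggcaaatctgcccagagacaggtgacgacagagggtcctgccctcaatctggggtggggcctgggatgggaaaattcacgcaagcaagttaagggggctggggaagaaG
B2m: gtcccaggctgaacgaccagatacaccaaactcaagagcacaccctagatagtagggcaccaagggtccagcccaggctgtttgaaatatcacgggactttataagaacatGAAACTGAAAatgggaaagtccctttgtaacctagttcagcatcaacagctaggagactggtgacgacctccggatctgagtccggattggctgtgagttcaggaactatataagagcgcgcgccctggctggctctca

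Matches to the ISRE core were common around the starts of the members and lay beside differences of both signs. Windows from 250 bases before to 50 after the start were found in RefSeq for 33 of the 43 members, and 15 of them, or 45.5%, held the ISRE core on either strand. Over all 32851 windows 3.44% held it, and over all 27025 symbols 3.99%. By role the core was in 8 of 14 type I targets, 2 of 8 factors, 2 of 3 sensors, both GBPs and 1 of 6 class I genes. The GAS core TTCNNNGAA, which reads the same on both strands, was in 9 of the 33 members, or 27.3%, and in 9.55% of symbols. Overlaps between both cores were not removed.

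The 13 measured members with an ISRE core ran from -0.59 (Stat2) to 0.83 (Isg15), with 8 higher, 5 lower and a median difference of 0.13. The 16 measured members whose windows hold none had 9 higher, 6 lower and a median of 0.03. Of the stretches shown with this core, those of Stat2 and B2m belong to lower members, and those of Irf2, Ddx58, Ifih1 and Isg15 belong to higher ones. These stretches were picked from members with the highest and lowest differences, so that choice put them on both sides. These are matches of letters, not sites shown to be bound.

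**Figure D3:**
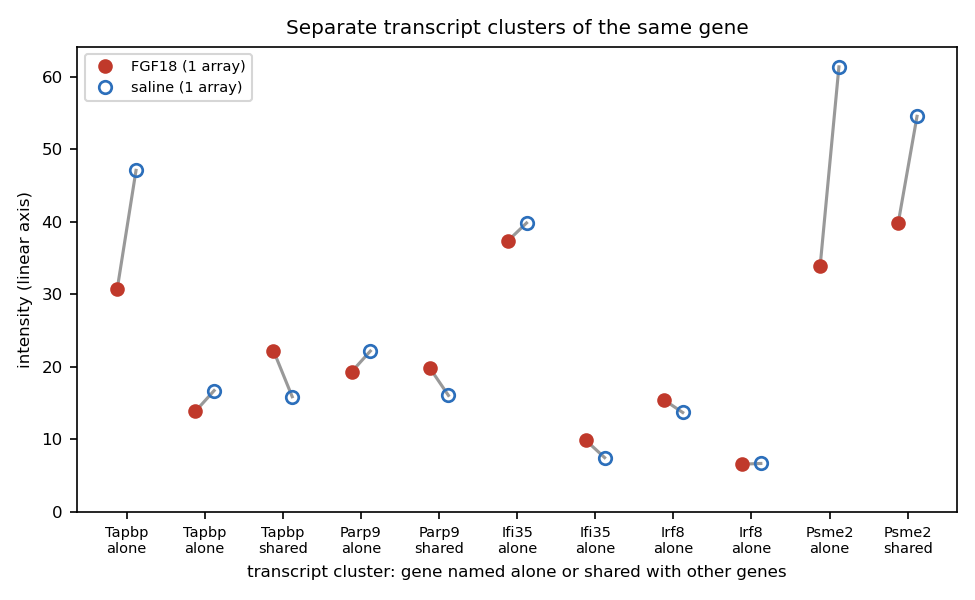
Intensity (linear axis) of separate transcript clusters of Tapbp, Parp9, Ifi35, Irf8 and Psme2 on the FGF18 array (filled) and the saline array (open), 1 array each. Shared clusters name a second gene as well, and for Tapbp and Parp9 the shared cluster leans opposite to the gene's own clusters, whereas both clusters of Psme2 are lower on the FGF18 array.

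Other genes of antigen presentation are set beside the members to show where class I differed. H2-K1, a classical class I heavy chain that pairs with B2m, read 71.8 on the FGF18 array and 107 on the saline array, 1.48-fold lower. BALB/c mice carry another MHC haplotype than the C57BL/6 reference, so probes for heavy chains may not match their transcripts fully. The cluster shared by H2-T22 and H2-T9 read 71.1 on the FGF18 array and 93.9 on the saline array. That shared by H2-Q2 and H2-D1 read 17.3 on the FGF18 array and 20.4 on the saline array. These leaned to the lower side, as did the dim cluster of H2-T3 and H2-T18, at 4.63 on the FGF18 array and 6.25 on the saline array. The cluster shared by H2-Q6 and H2-Q8 leaned to the higher side, at 58.8 on the FGF18 array and 51.9 on the saline array. The clusters shared by H2-Q7, H2-Q9 and H2-Q8 read 61.2 and 18.8 on the FGF18 array, against 61.0 and 12.9 on the saline array. Shared heavy chain clusters thus stood on both sides. H2-Q10 averaged 27.6 on the FGF18 array and 21.2 on the saline array. H2-Q4 averaged 21.1 on the FGF18 array and 20.6 on the saline array, but its 2 clusters disagreed. They read 37.1 and 11.8 on the FGF18 array, against 30.6 and 13.8 on the saline array. H2-M2 read 16.8 on the FGF18 array and 22.6 on the saline array. Over the 11 heavy chain genes with a cluster of their own, 6 were lower, 3 higher and 2 equal, with a median of -0.03 and none at 1.5-fold.

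Psme2, a subunit of the interferon-induced proteasome activator, read 33.9 on the FGF18 array and 61.4 on the saline array, 1.79-fold lower. Its shared cluster, which also names a pair of RIKEN genes, read 39.9 on the FGF18 array and 54.5 on the saline array, on the same side. Psme1, its partner in the activator ring, read 90.2 on the FGF18 array and 88.2 on the saline array, a difference of 0.03. The partners of that ring were thus lower in 1 case and near equal in the other.

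The peptidase gene Lap3 read 210 on the FGF18 array and 130 on the saline array, 1.61-fold higher. Erap1, which trims peptides in the endoplasmic reticulum, read 49.2 on the FGF18 array and 35.2 on the saline array, 1.39-fold higher. Thop1, a peptidase that destroys peptides in the cytosol, read 42.1 on the FGF18 array and 65.2 on the saline array, 1.53-fold lower. Trimming enzymes thus stood on both sides. Of 13 genes of loading and trimming, 1 was at least 1.5-fold higher (Lap3) and 2 at least 1.5-fold lower (Psme2 and Thop1), with a median of -0.02. Over all genes 2.61% were at least 1.5-fold higher and 4.15% lower.

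The constitutive proteasome core had 8 of 13 genes higher and none at 1.5-fold, with a median of 0.05. At or above both array medians, where 12 of these 13 genes lay, 59.8% of all genes were higher, with a median of 0.07. Shares of all genes past 1.5-fold were 2.61% on the higher side and 4.15% on the lower. Psmb1 read 254 on the FGF18 array and 192 on the saline array. Psma1 read 112 on the FGF18 array and 90.6 on the saline array. Psmb4 read 55.0 on the FGF18 array and 58.6 on the saline array. Psmb1 and Psma1 were thus higher on the FGF18 array, and Psmb4 was slightly lower. Genes of MHC class II presentation had 6 of 16 higher, 8 lower and none at 1.5-fold, with a median of -0.05. Among all genes, 49.5% were higher and 45.5% lower. Ciita, their master activator, read 12.9 on the FGF18 array and 14.6 on the saline array. The cluster of Cd74, the invariant chain gene, that also names Mir5107 read 39.1 on the FGF18 array and 56.2 on the saline array. H2-Ab1, a class II chain, read 46.0 on the FGF18 array and 38.1 on the saline array. Ciita and the shared cluster were thus lower and H2-Ab1 higher, and the signal of the shared cluster cannot be assigned to either gene. Rfxap and Rfxank encode subunits of the factor that binds class II promoters. Rfxap read 36.0 on the FGF18 array and 30.4 on the saline array. Rfxank read 32.8 on the FGF18 array and 38.2 on the saline array. The costimulatory ligand gene Cd80 read 30.0 on the FGF18 array and 42.9 on the saline array, 1.42-fold lower.

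Interferon genes themselves were mostly dim, and more were lower than higher on the FGF18 array. Of 19 ligand genes 5 were higher, 13 lower and 1 equal, with 13 below both array medians. Lower was also the more common side over all 10433 genes below both medians, with 5542 lower and 4071 higher. Ifnb1, the interferon beta gene, had the same value of 4.60 on both arrays. Ifng, the gene of interferon gamma, read 10.9 on the FGF18 array and 13.2 on the saline array. Ifnk, a keratinocyte interferon, read 3.19 on the FGF18 array and 3.34 on the saline array. Ifna2, at 5.97 on the FGF18 array and 11.1 on the saline array, was the ligand gene past 1.5-fold on the lower side. It is named after its value was seen, and both values lie below the medians. Over all genes 4.15% were at least 1.5-fold lower. Ifna15 read 30.0 on the FGF18 array and 25.1 on the saline array, and was among the brighter ligand genes. Several bright ligand genes leaned the other way. Ifna14 read 31.1 on the FGF18 array and 40.9 on the saline array. Ifna1 read 38.5 on the FGF18 array and 45.2 on the saline array. Ifnl3 read 29.0 on the FGF18 array and 29.9 on the saline array. The interferon alpha genes are close copies, and their probes may not separate them.

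The receptor chain genes of interferons alpha, beta and gamma were within 1.3-fold between arrays. Ifnar1 read 51.0 on the FGF18 array and 41.6 on the saline array, 1.22-fold higher. Ifnar2 read 41.9 on the FGF18 array and 40.8 on the saline array. Ifngr1 read 85.2 on the FGF18 array and 78.1 on the saline array. All 3 of these chains were thus slightly higher on the FGF18 array. Il10rb, a chain that interferon lambda receptors share with interleukin-10 receptors, read 23.2 on the FGF18 array and 44.0 on the saline array, 1.86-fold lower. It was the 1 gene of 9 past 1.5-fold, where 2.61% of all genes were on the higher side and 4.15% on the lower. The kinase gene Jak1 read 102 on the FGF18 array and 131 on the saline array, 1.29-fold lower.

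**Figure D4:**
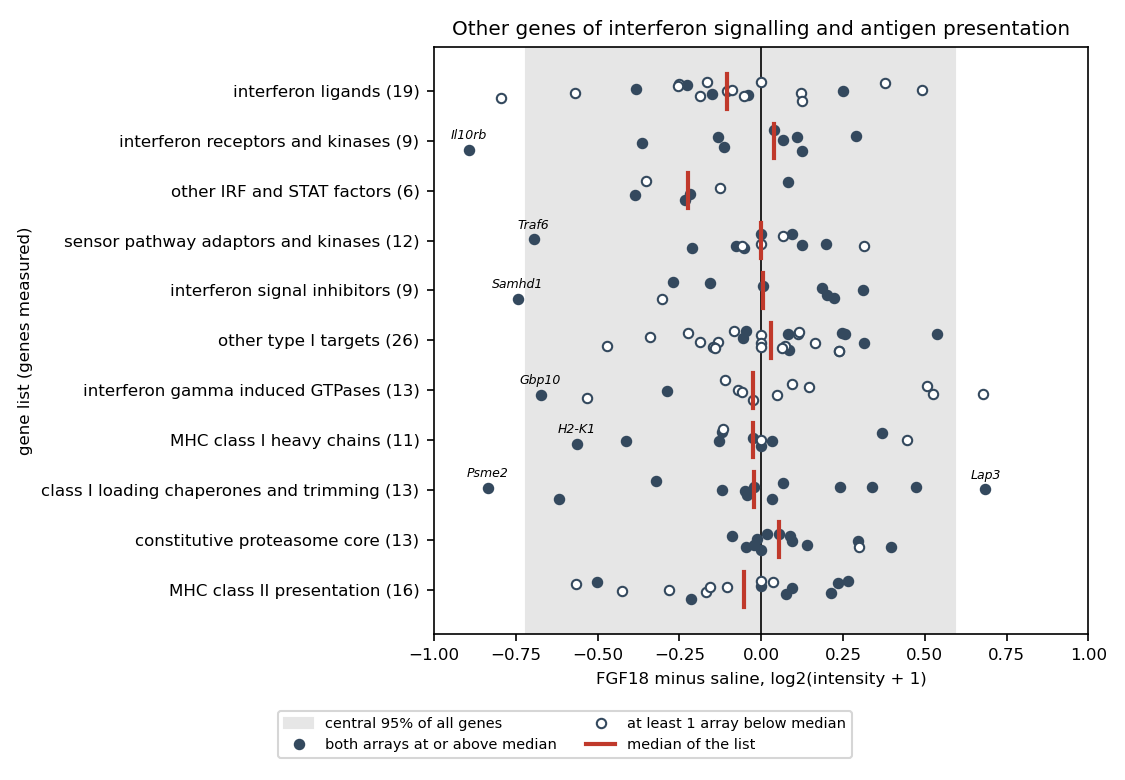
Difference (FGF18 minus saline, log2(intensity + 1)) of the other genes of interferon signalling and antigen presentation, 1 point per gene and 1 array per group, with the red bar at each list's median and the central 95% of all genes in grey. List medians lie between -0.23 and 0.05, and labels mark 7 genes chosen after their values were seen, Il10rb, Traf6, Samhd1, Gbp10, H2-K1 and Psme2 on the lower side and Lap3 on the higher.

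Sensor adaptors had 5 of 12 genes higher, 5 lower and 2 equal, against 49.5% of all genes higher and 45.5% lower. Mavs, the adaptor of RIG-I and MDA5, read 36.6 on the FGF18 array and 34.2 on the saline array. Cgas, the sensor of DNA in the cytosol, read 10.04 on the FGF18 array and 9.55 on the saline array, and its adaptor gene Sting1 had the same value of 7.73 on both. Traf6, a ubiquitin ligase of Toll-like receptor signalling, read 35.7 on the FGF18 array and 58.4 on the saline array, 1.62-fold lower. Traf6 was the 1 gene of the 12 past 1.5-fold, where 2.61% of all genes were on the higher side and 4.15% on the lower. The remaining adaptors and kinases described here differed less and leaned both ways. The adaptor gene Myd88 read 26.8 on the FGF18 array and 31.3 on the saline array. The Toll-like receptor adaptor gene Ticam1 read 23.7 on the FGF18 array and 20.5 on the saline array. The kinase gene Tbk1 read 120.1 on the FGF18 array and 110.1 on the saline array.

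Inhibitors of the pathway had 5 of 9 genes higher, against 49.5% of all genes. Samhd1, which destroys deoxynucleotides, read 58.0 on the FGF18 array and 97.9 on the saline array, 1.67-fold lower. Among the 9 it was the only one past 1.5-fold, where 2.61% of all genes were on the higher side and 4.15% on the lower. Socs1 read 9.48 on the FGF18 array and 11.9 on the saline array. Socs3 averaged 16.8 on the FGF18 array and 20.4 on the saline array. These suppressors of cytokine signalling were both lower. The phosphatase gene Ptpn2 read 64.2 on the FGF18 array and 51.6 on the saline array. Pias1 read 58.4 on the FGF18 array and 49.95 on the saline array. Of 6 other IRF and STAT genes, 1 was higher and 5 lower, with a median of -0.23, where 45.5% of all genes were lower. Stat3 read 74.0 on the FGF18 array and 97.1 on the saline array, 1.31-fold lower. Stat6 read 64.4 on the FGF18 array and 75.9 on the saline array. Stat5b read 39.4 on the FGF18 array and 46.0 on the saline array. Stat5a read 28.0 on the FGF18 array and 26.4 on the saline array.

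A further list of type I targets, chosen by function, was split almost evenly. Of 26 measured genes 13 were higher, 10 lower and 3 equal, with a median of 0.03 and none at 1.5-fold. The share higher over all genes was 49.5%, and 2.61% and 4.15% passed 1.5-fold on the higher and lower side. Parp12 read 28.4 on the FGF18 array and 19.3 on the saline array, 1.45-fold higher. Herc6 read 27.5 on the FGF18 array and 21.95 on the saline array. Cxcl10, a chemokine gene induced by interferons, read 14.2 on the FGF18 array and 13.1 on the saline array. These 3 genes were higher on the FGF18 array, whereas the next pair was slightly lower. Ifi27 read 36.8 on the FGF18 array and 38.3 on the saline array. Lgals9 read 45.2 on the FGF18 array and 46.7 on the saline array.

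Of 13 GTPase genes induced by interferon gamma, 1 was past 1.5-fold on each side and the median was -0.02. Over all genes 2.61% passed 1.5-fold on the higher side and 4.15% on the lower. Gbp10 read 53.6 on the FGF18 array and 86.2 on the saline array, 1.60-fold lower. Gbp9 read 21.1 on the FGF18 array and 26.0 on the saline array. Irgm1, which lay past 1.5-fold on the higher side and is named after its value was seen, read 9.27 on the FGF18 array and 5.42 on the saline array, both below the medians.

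Markers of the cells that can carry these transcripts are given beside the members. Over all genes 49.5% were higher, with 59.8% at or above both array medians and 39.0% below both. Macrophage markers, from cells that express IRF8 and many interferon targets, were higher for 10 of 11 genes, with summed intensities of 326 on the FGF18 array and 250.1 on the saline array. Leukocyte markers were higher for 3 of 5 genes, with sums of 113 on the FGF18 array and 105 on the saline array. Conventional dendritic cell markers were higher for 2 of 6 genes, with sums of 149.9 on the FGF18 array and 159 on the saline array. Siglech, a marker of plasmacytoid dendritic cells, had the same value of 14.8 on both arrays, and 1 of the 4 markers of those cells was higher. The 2 lower ones were Ly6d and Ccr9. Ly6d, the brightest of the 4, read 223 on the FGF18 array and 440 on the saline array. Ccr9 read 5.68 on the FGF18 array and 10.1 on the saline array. Which cells of the skin gave the Ly6d signal was not tested. Markers of T cells, NK cells and B cells were higher for 3 of 6, 3 of 5 and 2 of 4 genes. Those of Langerhans cells, neutrophils and endothelium were higher for 1 of 2, 3 of 6 and 3 of 6 genes. Markers of differentiated keratinocytes, the upper layers of epidermis, were lower for all 8 genes, with sums of 4354 on the FGF18 array and 15543 on the saline array. No marker in these lists was listed at 0. Of 5 other keratinocyte markers 4 were higher, with sums of 1309 on the FGF18 array and 1337 on the saline array, and the lower one was Krt14, at 328 on the FGF18 array and 575 on the saline array. The part of these cell types in the higher type I targets and in the lower B2m and H2-K1 was not tested.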

How the data were processed

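Affymetrix Expression Console and RMA made the values, per the submitters' processing notes, which give no version here. The values run over a range too wide for logarithms and were read as linear intensity, deposited at 1.44 to 11532 on the FGF18 array and 1.39 to 11488 on the saline array. Of 41345 transcript clusters, 23521 carried 1 gene symbol in the platform annotation and were used, 1814 carried several and 16010 none. Clusters of a symbol were averaged as log2(intensity + 1). Values were equal on both arrays in 4.90% of clusters. Genes below the array median on either array were given no fold, and no low values were filtered out of the counts. Arrays have no read depth, and 1 array per group limits precision. Computation used Python 3.11.15 with pandas 2.3.3, and the steps were tested on simulated data.

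The members and lists were chosen with earlier results of these data known. Named genes were all members, the 2 highest and 2 lowest genes at or above both medians in each pathway list, and a fixed set of signalling and presentation genes. H2-T22 and the other heavy chain genes with shared clusters, Ifit3b and Gbp2b were also named after their values were seen. Alternatives were the pseudocount, the choice of clusters, centring, a lowess trend (fraction 0.3), filters on low values, a 2-fold threshold, the mean, and leaving out the farthest member.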

Additional observations from a re-analysis of the deposited data

How the results depend on the processing

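No paired analysis was possible because each group has 1 array, and no replicate can be left out. No group median changed sign under the alternatives run, but among genes at or above both medians the median of all members and that of the factors were 0, against 0.07 for each as reported and 0.07 over all genes at that level. The members at least 1.5-fold higher, 1 as reported, numbered 3 with no pseudocount, where 3.22% of all genes were. After subtraction of the lowess trend they numbered 3, where 2.26% of all genes were. With a pseudocount of 16 they numbered 0 (0.546% of all genes), and at 2-fold 0 (0.257%). Among genes at or above both medians they numbered 0, where 3.22% of all genes at that level were. The members at least 1.5-fold lower, 1 as reported, numbered 2 with the brightest cluster of each gene, where 4.21% of all genes were. They numbered 2 after trend subtraction (4.38% of all genes), 0 with a pseudocount of 16 (1.39%) and 0 at 2-fold (1.06%). The median of the factors was 0.18 without Stat2. The median of the sensors was 0.27 over the 3 genes that passed either filter on level. The other alternatives moved medians by under 0.1 and counts by under 1.5 times. Tapbp was at -0.13, against -0.43 as reported, with shared clusters counted under the first or every gene they name. Over single members, 4 of 313 alternative values turned sign: Ifi35 was at -0.09 with its brightest cluster, Parp9 at 0.05 with shared clusters counted under every gene they name, an alternative chosen after seeing the data, and Psmb8 and Psmb10 at -0.05 and -0.04 after trend subtraction. No GBP passed either filter on level, so that alternative gave no value. Signal near the array median limits what the dim targets can show.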
